A study of Mus musculus with 2 samples.

Results

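The liver X receptors (LXRs) and the genes through which they move sterols out of cells were examined in cultured mouse FAPs (fibro-adipogenic progenitors), muscle-resident mesenchymal cells with the capacity to become fat cells. The 9 genes were taken by name from all 44291 genes measured. They are both receptors, Nr1h2 and Nr1h3, and 7 genes listed as LXR targets, Abca1, Abcg1, Mylip, Lpcat3, Srebf1, Smpdl3a and Apoe. Whether LXR regulates each of the 7 in mouse FAPs was not tested. All 9 were found in both files.

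The study sequenced RNA from wild-type FAPs given either platelet-rich plasma (PRP) or vehicle under adipogenic differentiation, with 1 library of each kind. By the study's methods, FAPs were sorted by flow cytometry from the muscles of both hind limbs. Both groups shared the induction medium, whose inducers are insulin, dexamethasone and the phosphodiesterase inhibitor IBMX in serum-rich DMEM. The labels name the agent as PRP, whereas the study's text speaks of exosomes prepared from human PRP, so PRP and control are used here as the names of the libraries, and neither the number of mice nor the time of induction before harvest is given in the labels.

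LXRs are nuclear receptors that sense oxysterols, the oxidised forms of cholesterol, and the sterol precursor desmosterol. They pair with a retinoid X receptor (RXR) on DNA, hold their targets down with co-repressors when no ligand is present, and switch them on when sterols build up. The targets send cholesterol to lipoprotein particles, lower its uptake, reshape phospholipids and switch on fatty acid synthesis. In cells that turn into adipocytes this pathway stands beside the SREBP pathway, which responds to the opposite state, a shortage of sterols.

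Reads assigned to genes numbered 40120843 with PRP and 34139741 in the control library. Levels are given as FPKM, the reads of a gene scaled by its exon length and by the library's assigned reads, so that levels of different genes can be compared. The read numbers behind the FPKM were recovered for all 9 genes and ran from 181 to 11615 in a library. With 1 library per group there is no replicate error. The 95% intervals given here cover the counting of fragments only, compare these libraries and not the treatments, and no p-value is given.

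The 9 genes did not share a single ratio. Both receptors and Abca1 had ratios of PRP to control near 1, Apoe was slightly lower with PRP, and Abcg1, Mylip, Lpcat3 and Srebf1 had the lowest ratios, from 0.478 to 0.546, with Smpdl3a between these groups at 0.677. Fold changes are differences of log2(FPKM + 1), PRP minus control, a scale that understates the change of low genes, and were taken over genes with a mean of at least 1 FPKM. Of the 9 genes, 8 passed this filter, and Abcg1 fell just under it with a mean of 0.996 FPKM. Of these 8 genes, 7 were lower with PRP and 1, Abca1, was marginally higher, against 49.1% lower and 50.9% higher among the 13401 genes that passed the filter; all 8 were lower once the libraries were rescaled without mitochondrial and the 50 most abundant genes. Their median log2 fold change was -0.30, or -0.43 with Abcg1 included, against 0.01 over all genes tested. None of the 8 differed by 2-fold on this scale, a size that 2.83% of all tested genes reached in either direction and 0.828% in the lower one. By the plain ratio of FPKM, 1 member, Lpcat3, was past 2-fold. At 1.5-fold 3 of the 8 were lower, namely Mylip, Lpcat3 and Srebf1, against 4.57% of all tested genes, and none was higher by that much, against 6.15% of all tested genes (10.7% in either direction).

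**Figure D1:**
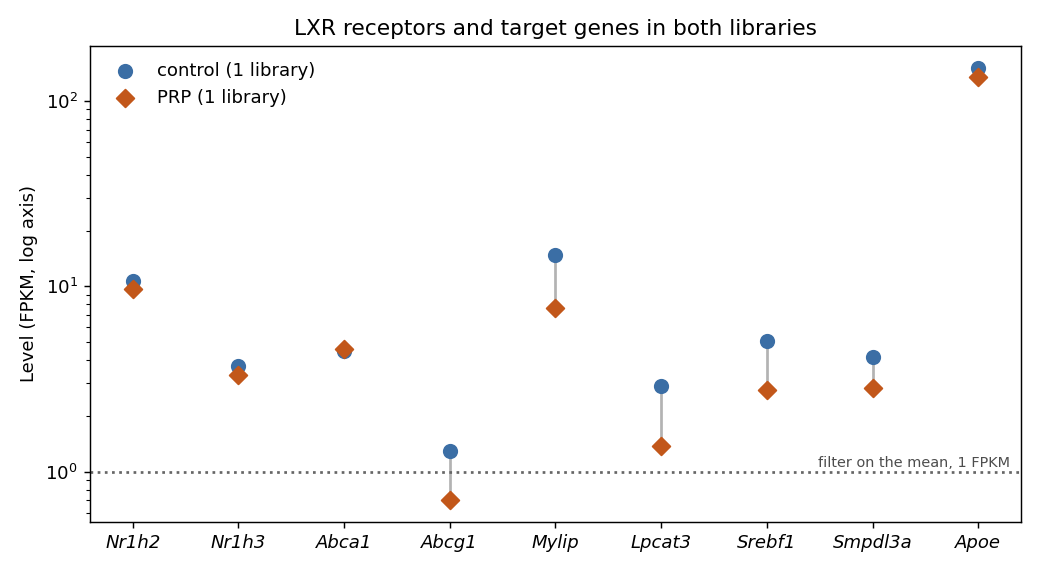
Levels of the 9 genes in FPKM on a log axis, with a circle for the control library and a diamond for the PRP library, 1 library each. The symbols of Nr1h2, Nr1h3, Abca1 and Apoe nearly meet, whereas those of Abcg1, Mylip, Lpcat3 and Srebf1 are clearly apart, with the PRP library lower.

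The interval of the ratio lay wholly below 1 for 5 of the 8 genes, and for Abcg1 as well, while it included 1 for both receptors and Abca1. None lay above 1. Among the 12369 tested genes with recovered reads 26.1% had an interval below 1, so that alone such an interval was common. Among all 26406 genes with recovered reads, without a filter, 13.9% had one.

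The receptors were examined first. Nr1h2 encodes LXRβ, the receptor made in nearly all tissues, and lies on the minus strand at chr7:44549616-44553951 of mm10. It had 9.73 FPKM with PRP and 10.6 FPKM in the control library, from 1309 and 1218 reads. The ratio of 0.914 had an interval from 0.818 to 1.02, which included 1. That call depended on the setting, since the interval was 0.845 to 0.990 on undivided reads and 0.799 to 0.9999 after rescaling without mitochondrial and the 50 most abundant genes.

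Nr1h3 encodes LXRα, which is known from liver, macrophages and fat and whose gene is itself an LXR target in some cells. Its locus is chr2:91184061-91202834 on the minus strand. The PRP library had 3.33 FPKM of it and the control library 3.72 FPKM, a ratio of 0.896 with an interval from 0.717 to 1.12. With 336 and 319 reads, the difference was within counting error. A stretch of 1.35% of its exon length is shared with Gm13783, which had at most 11 reads in a library. Per length, Nr1h2 was 2.92 times as abundant as Nr1h3 in the PRP library and 2.86 times in the control library, so LXRβ was the more abundant receptor transcript in both. Among all tested genes Nr1h2 and Nr1h3 stood at the 33.4th and 32.7th percentile of the log2 fold change.

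The sterol efflux transporters came next, and they differed from each other. Abca1 encodes the transporter that loads cholesterol and phospholipid onto lipid-poor apolipoprotein A-I, and it lies at chr4:53030787-53159895 on the minus strand. It had 4.59 FPKM with PRP and 4.50 FPKM in the control library, from 1909 and 1591 reads. The ratio was 1.02 with an interval from 0.928 to 1.12, and this interval lies wholly above those of Abcg1, Mylip, Lpcat3 and Srebf1. At the 52.5th percentile of all tested genes, Abca1 was the only one of the 9 genes with a higher value in the PRP library, by a log2 fold change of 0.02, and with the libraries rescaled without mitochondrial and the 50 most abundant genes this became -0.0023.

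Abcg1 encodes the partner transporter, which passes cholesterol on to particles that already carry lipid, and lies at chr17:31057675-31117988 on the plus strand. It was the lowest of the 9 genes in both libraries, at 0.704 FPKM with PRP and 1.29 FPKM in the control library. From 206 and 321 reads the ratio was 0.546 with an interval from 0.422 to 0.704. This interval does not reach that of Abca1. The level of Abca1 was 6.53 times that of Abcg1 in the PRP library and 3.49 times in the control library.

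The study names the microRNAs let-7f and miR-16 as exosome cargo, so the longest annotated 3′UTR of each of the 9 genes was searched for their seed matches. The mouse mature sequences from RefSeq (GRCm38.p6) are shown because their seeds, bases 2 to 8 in capitals, define what was searched, namely CTACCTC for let-7 and TGCTGCT for miR-16.
mmu-let-7f-5p: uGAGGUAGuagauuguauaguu
mmu-miR-16-5p: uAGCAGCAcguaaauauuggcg
Abcg1 had the only match among the 9 genes, a let-7 match at chr17:31115188-31115194 on the plus strand, in a 3′UTR of 3703 bases. It is shown with its flanks and with the match in capitals.
Abcg1 3′UTR site: cacattaaCTACCTCcaccgagc
None of the 9 had a miR-16 match. Over the 10365 genes past the filter whose 3′UTR is annotated, the share with a match was 11.2% for let-7 and 27.1% for miR-16. A match is a run of letters and not evidence of binding. Mylip, Lpcat3 and Srebf1 had neither match in 3′UTRs of 1512, 635 and 833 bases. Nor had Nr1h2, Nr1h3, Abca1, Smpdl3a and Apoe, in 369, 275, 3156, 315 and 271 bases. The shares over all genes were not adjusted for 3′UTR length, and any link of a match to the ratios was not tested.

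The genes that act on lipoprotein uptake and membrane lipids followed. Mylip encodes an E3 ubiquitin ligase, also called IDOL, that marks lipoprotein receptors for breakdown. Its locus is chr13:45389742-45412022 on the plus strand. It had 7.63 FPKM with PRP and 14.7 FPKM in the control library, from 990 and 1622 reads. The ratio of 0.519 had an interval from 0.463 to 0.582, and the log2 fold change of -0.86 was the lowest of the 8 tested members, with rank 207 from the lowest among 13401 genes. The interval of its level was 6.97 to 8.34 FPKM with PRP and 13.7 to 15.7 FPKM in the control library. In the control library Mylip stood above Nr1h2, and with PRP below it, in both cases by more than their counting intervals.

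Lpcat3 encodes the acyltransferase that puts polyunsaturated fatty acids into phosphatidylcholine, and lies at chr6:124663027-124704418 on the plus strand. It had 1.38 FPKM with PRP and 2.89 FPKM in the control library. Its ratio of 0.478 was the lowest among the 9 genes, although its interval, from 0.366 to 0.623 on 181 and 322 reads, was also wide and overlapped those of Mylip, Srebf1 and Abcg1. Its log2 fold change of -0.71 stood at the 2.78th percentile of all tested genes. Of its exon length 10.2% is shared with the neighbour Emg1 on the other strand. Emg1 itself had 4.12 FPKM with PRP and 3.36 FPKM in the control library, a ratio of 1.23 with an interval from 1.05 to 1.44. The library kit keeps strand, but whether the counting used it is not given in the sources used here, and the part of this overlap in the value of Lpcat3 was not tested.

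Srebf1 encodes SREBP-1, and its 1c form is the lipogenic transcription factor that LXR switches on. Its locus is chr11:60199089-60222581 on the minus strand. It had 2.76 FPKM with PRP and 5.08 FPKM in the control library, from 625 and 977 reads, a ratio of 0.544 with an interval from 0.471 to 0.629. The log2 fold change was -0.69, at the 2.98th percentile. Values per gene add up the forms 1a and 1c, which start at different exons, so the level of each form is not known here. Srebf1 shares 3.11% of its exon length with Rai1 and Mir6922, and Rai1 had a ratio of 0.977 with an interval from 0.868 to 1.10.

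LXR and RXR bind direct repeats with 4 bases between the repeats, known as DR4 elements. RefSeq promoter windows of GRCm38.p6, from 250 bases before to 50 bases after a start, were found for 7 of the 9 genes, in 12 windows, with none for Abcg1 and Smpdl3a. The letters AGGTCA, repeated in the same direction after 4 bases on either strand with at most 2 mismatches over the 12 fixed bases, was in none of these 12 windows and in 3.02% of all 32851 windows. With at most 3 mismatches, a limit chosen after that result was seen, 2 of the 12 windows had a match, against 21.9% of all windows. These elements are shown because they were the only matches among the members at this looser limit. Capitals mark the repeats, read on the plus strand, opposite to the genes.
Abca1, chr4:53159947-53159962: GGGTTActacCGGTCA
Srebf1, chr11:60210638-60210653: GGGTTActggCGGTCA
The Abca1 element lies at positions -67 to -52 from the only RefSeq start of that gene in the table, and the Srebf1 element at -182 to -167 from the innermost of 3 starts. Both elements had the same repeats of 6 bases and differed only within the 4 bases between them. Any link of these elements to the ratios of Abca1 and Srebf1 was not tested, and the value of Srebf1 adds up its forms. A match describes letters in this window and says nothing of receptor binding.

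Smpdl3a encodes a secreted, sphingomyelinase-like phosphodiesterase and lies at chr10:57794335-57811830 on the plus strand. With PRP it had 2.82 FPKM and in the control library 4.17 FPKM, from 234 and 294 reads. The ratio was 0.677, and its interval from 0.527 to 0.869 overlapped those of all members except Abca1. By overlap of intervals alone it was therefore not placed with either group of genes, and its differences from single members were not tested. Its log2 fold change of -0.44 stood at the 8.66th percentile.

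Apoe encodes apolipoprotein E, the secreted protein that carries cholesterol and is taken up by lipoprotein receptors. Its locus is chr7:19696109-19699188 on the minus strand. It was by far the most abundant of the 9 genes, with 135.4 FPKM with PRP and 151.5 FPKM in the control library, from 11615 and 11059 reads. That placed it at rank 400 and 333 of all genes by level. The ratio of 0.894 was close to those of the receptors, but with so many reads its interval, from 0.861 to 0.927, left out 1. Nr1h3, with nearly the same ratio of 0.896 on far fewer reads, had an interval that included 1.

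**Figure D2:**
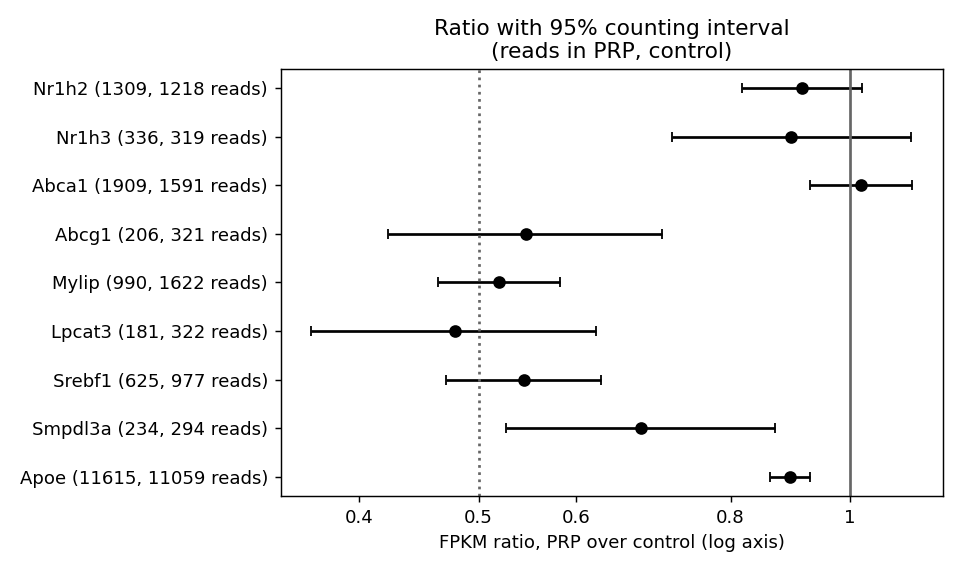
Ratio of FPKM in the PRP library to the control library on a log axis, with exact 95% counting intervals and, in brackets, the reads of both libraries. The solid line marks a ratio of 1 and the dotted line 0.5, and the intervals of Abcg1, Mylip, Lpcat3 and Srebf1 all lie below those of Nr1h2, Nr1h3, Abca1 and Apoe.

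Of the 36 pairs of members, 18 had ratio intervals that did not overlap. These were the 16 pairs that set Abcg1, Mylip, Lpcat3 or Srebf1 against Nr1h2, Nr1h3, Abca1 or Apoe, and the pairs of Abca1 with Smpdl3a and with Apoe. Within the first 4 genes every pair of intervals overlapped. These groups were formed from the same ratios, so the 16 pairs restate that sorting and are no separate support for it. The share of such pairs over all tested genes was not computed.

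By level, the order in the control library was Apoe, Mylip, Nr1h2, Srebf1, Abca1, Smpdl3a, Nr1h3, Lpcat3 and Abcg1. There the level intervals of neighbours from Srebf1 to Lpcat3 overlapped, which is not a test of a difference. In the PRP library it was Apoe, Nr1h2, Mylip, Abca1, Nr1h3, Smpdl3a, Srebf1, Lpcat3 and Abcg1. Here the intervals of Nr1h3 and Smpdl3a, and of Smpdl3a and Srebf1, overlapped. Srebf1 thus moved from above Abca1 to below it, and its interval in the PRP library no longer met that of Abca1.

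**Figure D3:**
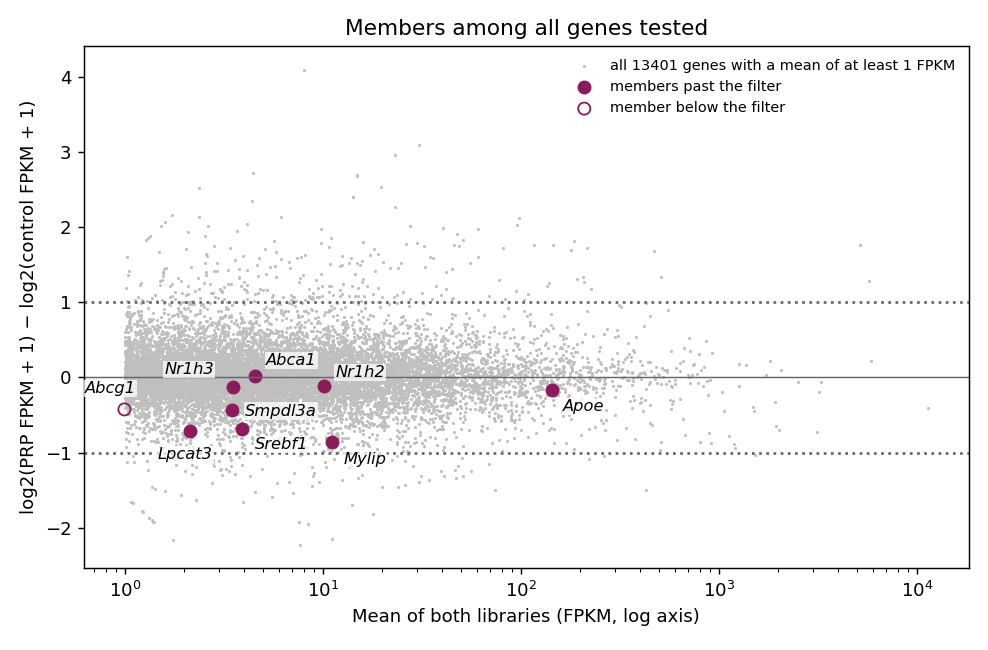
Log2 fold change of each gene against its mean level, with gray points for the 13401 genes with a mean of at least 1 FPKM and large symbols for the 9 members, Abcg1 open because its mean of 0.996 FPKM was below the filter. Dotted lines mark 2-fold, which none of the members passed, and Mylip, Lpcat3 and Srebf1 lie toward the lower edge of the gray cloud.

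The machinery on which the receptors depend was compared next, with lists of pathway genes. In each list, the highest and lowest gene and the fold thresholds are on the log2(FPKM + 1) scale, and the ratios beside them are of plain FPKM. Of 3 RXR genes 2 passed the filter. Rxra had 5.05 FPKM with PRP and 5.99 FPKM in the control library, with no recovered reads and so no interval. Rxrb had 1.96 and 2.07 FPKM, a ratio of 0.945 with an interval from 0.747 to 1.20. Of 16 co-regulators of LXR 14 passed the filter, 9 lower and 5 higher with PRP, none by 1.5-fold, and their median log2 fold change was -0.11. The co-repressor enzyme Hdac3 was the lowest, with a ratio of 0.688 (0.565 to 0.838), and the co-activator subunit Med1 the highest, with a ratio of 1.19 (1.09 to 1.30).

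Enzymes that make or remove LXR ligands were compared as well. Of 9 such genes 4 passed the filter, 2 lower and 2 higher. Ch25h, which makes 25-hydroxycholesterol, had 4.03 FPKM with PRP and 2.32 FPKM in the control library, a ratio of 1.73 with an interval from 1.24 to 2.44 on 224 and 110 reads. These are transcript levels, and sterols were not measured in these files.

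Of 20 other genes known as direct LXR targets in various tissues 9 passed the filter. With PRP 6 of them were lower and 3 higher, with a median of -0.30, near that of the members. Lower by 1.5-fold were 3 genes, against 4.57% of all tested genes, and none was higher by that much, against 6.15%. The lowest was Fasn, the fatty acid synthase, with 7.27 against 13.5 FPKM and a ratio of 0.540 (0.507 to 0.575). The highest was Ugt1a1, with a ratio of 1.44 (1.07 to 1.95), but 82.7% of its exon length also belongs to neighbouring annotated genes, which makes the value uncertain. The liver and gut transporters Abcg5 and Abcg8 had at most 11 reads in a library, too few for a comparison.

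The genes downstream of Mylip and Srebf1 were then compared. Among lipoprotein receptor genes whose proteins Mylip can mark for breakdown, Vldlr had 3.06 FPKM with PRP and 2.63 FPKM in the control library, a ratio of 1.16 (1.03 to 1.32). Lrp8 had 2.65 and 3.60 FPKM, without recovered reads. A transcript level does not show how much receptor protein Mylip removes.

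Of 16 lipogenic targets of SREBP-1c 13 passed the filter, 10 lower and 3 higher with PRP. The median log2 fold change was -0.74. Lower by 1.5-fold were 7, against 4.57% of all tested genes. An interval below 1 was found for 10, against 26.1% of tested genes with recovered reads. The lowest was the desaturase gene Scd2, with 38.5 against 110.5 FPKM and a ratio of 0.348 (0.336 to 0.361). Pgd, of the pentose phosphate pathway, was the highest with a ratio of 1.27 (1.22 to 1.32). Fasn is in this list and in that of direct LXR targets, as is Scd1, so these lists are not independent.

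Among 9 genes for SREBP-2, its processing and its targets, 8 passed the filter, 7 lower and 1 higher, with a median of -0.52. Insig1, which holds SREBPs in the endoplasmic reticulum and is itself switched on by them, was the lowest on the log2(FPKM + 1) scale with 16.4 against 30.8 FPKM, a ratio of 0.534 (0.493 to 0.578). Its relative Insig2 had a ratio of 1.04 (0.906 to 1.20). The interval of Insig1 overlapped that of Srebf1, whose ratio was 0.544.

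**Figure D4:**
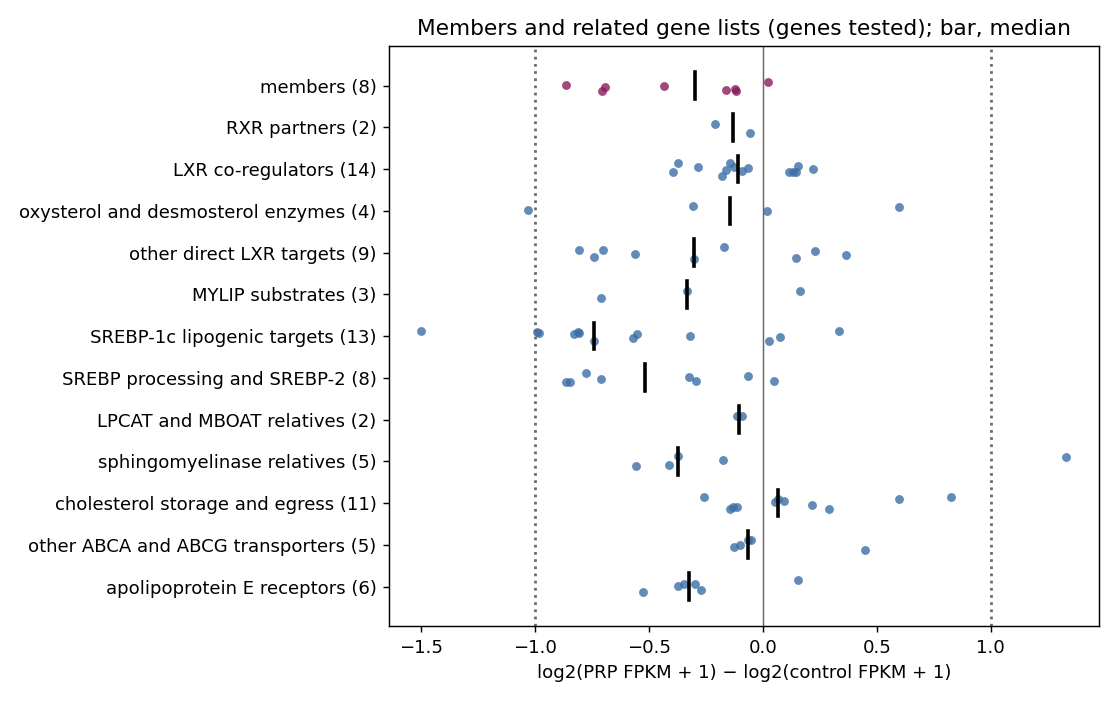
Log2 fold change of the members and of the genes in 12 related lists that had a mean of at least 1 FPKM, 1 point per gene, with the number of genes in brackets, the median as a black bar and dotted lines at 2-fold. The median of the SREBP-1c targets is the furthest to the left, at -0.74, and the storage and egress genes have a median of 0.07.

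Relatives of the members were compared to see whether other family members differed alike. Of 13 other ABCA and ABCG transporters 5 passed the filter, and the median was -0.06. On the log2(FPKM + 1) scale none differed by 1.5-fold, with Abca8b the highest and Abca3 the lowest. By plain FPKM, Abca8b had a ratio of 1.61 (1.35 to 1.94), past 1.5-fold, and Abca3 one of 0.888 (0.782 to 1.01), next to the 0.882 of Abca2. Of 6 relatives of Lpcat3 only Lpcat1 and Lpcat4 passed the filter. Their ratios were 0.904 (0.716 to 1.14) and 0.858 (0.586 to 1.26), so no difference was detectable, and the interval of Lpcat3 overlapped that of Lpcat4 but not that of Lpcat1.

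Of 6 genes of sphingomyelin and ceramide breakdown 5 passed the filter, 4 of them lower with PRP and with intervals below 1. Among tested genes with recovered reads 26.1% had such an interval. The lowest was Smpd1, the acid sphingomyelinase of lysosomes, with a ratio of 0.616 (0.513 to 0.739), next to the 0.677 of Smpdl3a. Smpd3, a neutral sphingomyelinase, differed in the other direction with 8.70 FPKM with PRP and 2.86 FPKM in the control library, a ratio of 3.05 (2.65 to 3.51). It was higher by 2-fold, a size that 2% of all tested genes reached in the upward direction.

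Genes that store, free and hand over cholesterol inside the cell were split in direction. Of 14 such genes 11 passed the filter, 7 higher and 4 lower with PRP, against 50.9% higher among all tested genes. Their median was 0.07, against 0.01 over all genes tested. Of the 10 with recovered reads, 4 had an interval above 1 and 2 below it. Among tested genes with recovered reads the share was 26.1% on each side. Soat2, which esterifies cholesterol, was the highest with 1.67 against 0.503 FPKM, a ratio of 3.31 (1.98 to 5.81) on 148 and 38 reads. Also higher were Soat1, its relative, and Lipa, the lysosomal lipase that frees cholesterol, with ratios of 1.25 (1.17 to 1.35) and 1.64 (1.46 to 1.85). These last genes were named after their values were seen. The lowest was Gramd1a, a sterol carrier at membrane contacts, with a ratio of 0.826 (0.771 to 0.885).

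Receptors that take up particles with apolipoprotein E were mostly lower. Of 8 genes 6 passed the filter, 5 lower and 1 higher, none by 1.5-fold, with a median of -0.32. Among all tested genes 49.1% were lower. Of the 5 with recovered reads, 4 had an interval below 1 and 1 above it. Among tested genes with recovered reads the share was 26.1% on each side. Lrp1 was the lowest, with 62.8 against 90.9 FPKM and a ratio of 0.692 (0.679 to 0.704), and the heparan sulfate proteoglycan Sdc4 the highest, with a ratio of 1.12 (1.07 to 1.16).

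Marker genes were used to check the labelled cell type. Of 11 FAP markers 9 passed the filter, with Vim the most abundant, whereas Pi16 and Lum had at most 13 reads in a library. All 9 were lower with PRP, from a ratio of 0.374 for Dpt to 0.973 for Vim, with a median log2 fold change of -0.47. The summed level over the list was 959 FPKM with PRP and 1216 FPKM in the control library, of which Vim alone had 593 and 610 FPKM. Ratios were 0.542, 0.624 and 0.501 for the collagen genes Col1a1, Col1a2 and Col3a1. Those of Pdgfra, Cd34, Dcn and Ly6a were closer to 1, at 0.710, 0.780, 0.901 and 0.902. Of 10 adipocyte markers 8 passed the filter, 6 higher and 2 lower with PRP, from a ratio of 0.752 for Lipe to 1.33 for Pparg, and their summed level was 82.0 and 70.4 FPKM. In bulk RNA, fewer cells of a type and less RNA per cell cannot be told apart, and the part of these shifts in the values of the members was not tested.

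Apoe and the receptor Nr1h3 are also strongly expressed in macrophages, so macrophage markers are given beside them. Their summed level over 12 genes was 12.3 FPKM with PRP and 11.6 FPKM in the control library, against 135.4 and 151.5 FPKM of Apoe alone. Only Cd68 and Lyz2 passed the filter, with ratios of 1.98 (1.41 to 2.82) and 0.648 (0.512 to 0.820). Below it, Mpeg1 had 138 and 40 reads, a ratio of 2.94 (1.76 to 5.10). The intervals of Csf1r, with a ratio of 1.30 (0.883 to 1.94), and Cd14, with 1.90 (0.956 to 3.98), included 1. So did those of Itgam, with 1.01 (0.458 to 2.25), and Mrc1, with 0.851 (0.376 to 1.93). Adgre1, Marco, Ptprc, C1qa and C1qb had at most 12 reads in a library. The part of these cells in the values of Apoe and Nr1h3 was not tested. Summed levels of platelet markers were 2.42 and 3.70 FPKM, with Ppbp and Gp9 at 0 in both libraries. Only Gp1bb passed the filter, with 0.872 and 2.26 FPKM. However, 92.9% of its exon length also belongs to other annotated genes, which makes its value and this sum uncertain. Below the filter, Gp1ba had a ratio of 0.886 (0.584 to 1.35) and Itga2b one of 1.55 (1.01 to 2.43). Endothelial markers summed to 9.59 and 5.46 FPKM. Most of this sum was Kdr and Tek, the only genes of the list past the filter. Their ratios were 2.82 (2.43 to 3.28) and 1.33 (1.14 to 1.55). Pecam1, Vwf, Emcn and Cdh5 had at most 0.203 FPKM in a library. Of these, Pecam1 (1.49 to 13.4, on 47 and 10 reads) and Vwf (1.02 to 2.97) had ratio intervals above 1. Those of Emcn (0.587 to 2.38) and Cdh5 (0.308 to 3.15) included 1. Myogenic markers summed to 2.95 and 3.43 FPKM, with Pax7 and Myog at 0 in both. Nearly all of this sum was Des, with 2.91 and 3.39 FPKM and a ratio of 0.859 (0.709 to 1.04). Myod1 and Mymk had at most 2 reads in a library, and Myf5 was not among the genes measured.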

How the data were processed

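The 2 libraries of FAPs, 1 treated with PRP and 1 control, were analysed from the FPKM values that the authors deposited. Per the labels and methods, reads were trimmed with fastp 0.23.4, aligned to mm10 with STAR 2.5.3a and counted per gene with featureCounts. The FPKM formula, the annotation release and the use of strand are not given in the sources used here, and FPKM are not counts, so no count test was run. Exon lengths and coordinates came from GENCODE M21 (GRCm38), which held 41492 of the 44291 genes. With these lengths 93.8% of 28160 genes gave whole reads in both libraries, within 0.001 reads. Even read numbers made up 79.3% and 80.3% of low counts, so 2 reads were taken as 1 fragment. Ratio intervals are exact Clopper-Pearson 95% intervals of the PRP share of fragments, and level intervals are exact Poisson intervals. Both cover counting error only, and PCR duplicates were not considered.

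The filter was a mean of at least 1 FPKM and the pseudocount 1. The members, gene lists and comparisons were chosen with earlier results of these data known. Named genes are all 9 members and, from each list, the highest and the lowest fold change among genes past the filter (all where 3 or fewer passed). With 2 libraries a pattern is 1 ratio, so no genes of like pattern were sought. The alternatives were pseudocounts of 0.1 and 5, no filter or 5 FPKM, rescaling to a common sum, centring, rescaling without mitochondrial and the 50 most abundant genes, a 1.5-fold threshold, intervals on undivided reads and, for all genes, leaving out those sharing at least 50% of their exon length. The procedures were tested on simulated data. A further search for DR4 elements with at most 3 mismatches was added after seeing the data. Computation used SciPy 1.17.1 and pandas 2.3.3 in Python 3.11.15, with bedtools 2.31.1 for exon overlaps, NumPy 2.4.6 and matplotlib 3.10.9. Values of some genes that this rule would name are not reported here.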

Additional observations from a re-analysis of the deposited data

How the results depend on the processing

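Of 77 values recomputed under the alternatives, 70 stayed within a set margin and 7 moved past it. The margin was 1.5-fold for counts and came from the counting intervals for fold changes. No called direction reversed, but this shows little. Only single genes with an interval that left out 1 could be called reversed, and a pseudocount or filter cannot change a sign. The median log2 fold change of the members, -0.30, became -0.16 over the 3 members with a mean of at least 5 FPKM, -0.19 with a pseudocount of 5, and -0.43 with no filter, and lay between these values otherwise. A pseudocount of 0.1 put 1 member, Lpcat3 with -1.01, past 2-fold. At a threshold of 1.5-fold 3 members and 1436 of all tested genes passed, against 0 members and 379 genes at 2-fold. At a mean of at least 5 FPKM 3 members remained, all 3 of them lower. With a pseudocount of 5 the log2 fold changes of Mylip, Lpcat3 and Srebf1 shrank to -0.64, -0.31 and -0.38, as its construction implies. Intervals on undivided reads left out 1 for 7 members in place of 6, with Nr1h2 added at 0.845 to 0.990. The same number followed from rescaling without mitochondrial and the most abundant genes, with Nr1h2 at 0.799 to 0.9999. No paired analysis was possible because there is 1 library per group. Depth limits Abcg1, Lpcat3, Smpdl3a and Nr1h3 most, whose ratios rest on 181 to 336 reads in a library.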
